A study of Mus musculus with 7 samples.

Results

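The chromatin around 10 genes of blood coagulation was compared between 3 nucleases in mouse liver, namely F12, F11, F9, F7, F10, F5, F2 and F13b, which encode clotting factors, and Proc and Serpinc1, which encode inhibitors of clotting. The study mapped accessible chromatin in the liver of male C57BL/6 mice aged 8 weeks. Benzonase and Cyanase were each used on pulverized frozen liver, with 3 libraries per enzyme at 0.25, 1 and 4 U, while fresh liver gave the nuclei for DNase I, with 1 library in the labels although the header of the DNase I list names 2 pooled libraries. The authors pooled the tags of each nuclease and deposited 1 list of hotspots per nuclease, a hotspot being a stretch of the genome where cleavage tags cluster above background. The window of a gene ran from 20 kb before to 20 kb after its protein-coding transcripts on the mouse genome mm9. The windows of the 10 genes, out of 22365 protein-coding genes in the annotation, held 52 of the 60910 Benzonase hotspots, 49 of the 57675 Cyanase hotspots and 62 of the 72286 DNase I hotspots. Hotspots of any lists that overlapped by at least 1 bp were joined into a region, which gave 65 regions in these windows out of 94491 in the genome. The lists hold positions without tag numbers, so the depth behind a hotspot is unknown, and pooling leaves no spread between libraries. Intervals of shares are 95% Wilson intervals, whose only error is that of counting, and no test was made. Nuclease, tissue state and preparation changed together between DNase I and the other enzymes and cannot be told apart. In bulk tissue, fewer cells with an open site and less cleavage per cell cannot be told apart either.

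Coagulation is a cascade of serine proteases that circulate as inactive precursors and activate each other in turn. The contact pathway begins with factor XII (F12), factor XI (F11) and factor IX (F9), the tissue factor pathway with factor VII (F7), and both meet at factor X (F10), which with its cofactor factor V (F5) turns prothrombin (F2) into thrombin, the enzyme that makes fibrin. Factor XIII, whose carrier subunit is encoded by F13b, cross-links the fibrin, while antithrombin (Serpinc1) and activated protein C (Proc) hold the cascade back, and hepatocytes are known as the main source of these proteins in plasma.

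Marker genes were used to check the label of the tissue, by asking whether a transcription start site (TSS) of each gene lay inside a hotspot. All 7 hepatocyte markers (Alb, Ttr, Apoa1, Apob, Tat, Cps1 and Hnf4a) had a TSS inside a hotspot of every list, and 0 of 3 genes of other tissues (Myod1, Neurod1 and Ins2) did in any list. Markers of the other liver cells differed between the lists. The counts in the order Benzonase, Cyanase and DNase I were 2, 2 and 0 of 4 for sinusoidal endothelium, 1, 1 and 4 of 4 for Kupffer cells, 2, 3 and 0 of 3 for stellate cells, 2, 1 and 1 of 4 for bile duct, and 0, 0 and 1 of 4 for blood cells. The part of these cells in the values of the coagulation genes was not tested.

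A TSS inside a hotspot was found for 10 of the 10 coagulation genes in the Benzonase list, where 57.4% of all protein-coding genes had one, for 9 in the Cyanase list (background 55.7%) and for 10 in the DNase I list (background 47.4%). Hotspots of all 3 lists covered a TSS of 9 genes, against 46.1% of all protein-coding genes. The exception was F13b, which had no Cyanase hotspot. RefSeq start sites of 9 of the genes could be placed on mm9 by an exact match of the RefSeq promoter (build GRCm38.p6). They coincided with the GENCODE start in F7, F9, F10, F11 and F13b and lay at -43 in F2, -23 in Serpinc1, -11 in F12 and -3 in F5, and each lay inside hotspots of the same lists as the GENCODE start.

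Hotspots were also dense in the windows as a whole. The median number per 100 kb of window was 8.11 for Benzonase, 8.36 for Cyanase and 11.1 for DNase I, against medians of 3.84, 3.61 and 4.25 over the windows of all protein-coding genes. F11 had the highest density, with 14.8 hotspots per 100 kb for Benzonase and for Cyanase and 18.1 for DNase I. F13b had the lowest, with 1.61 for Benzonase, 0 for Cyanase and 1.61 for DNase I. The other 8 genes lay between 5.61 and 11.1 for Benzonase, between 4.02 and 11.7 for Cyanase and between 5.87 and 14.0 for DNase I. F2 was the only gene with fewer DNase I hotspots (3) than Benzonase (4) and Cyanase hotspots (6), and F5 had fewer DNase I (11) than Benzonase hotspots (12).

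**Figure D1:**
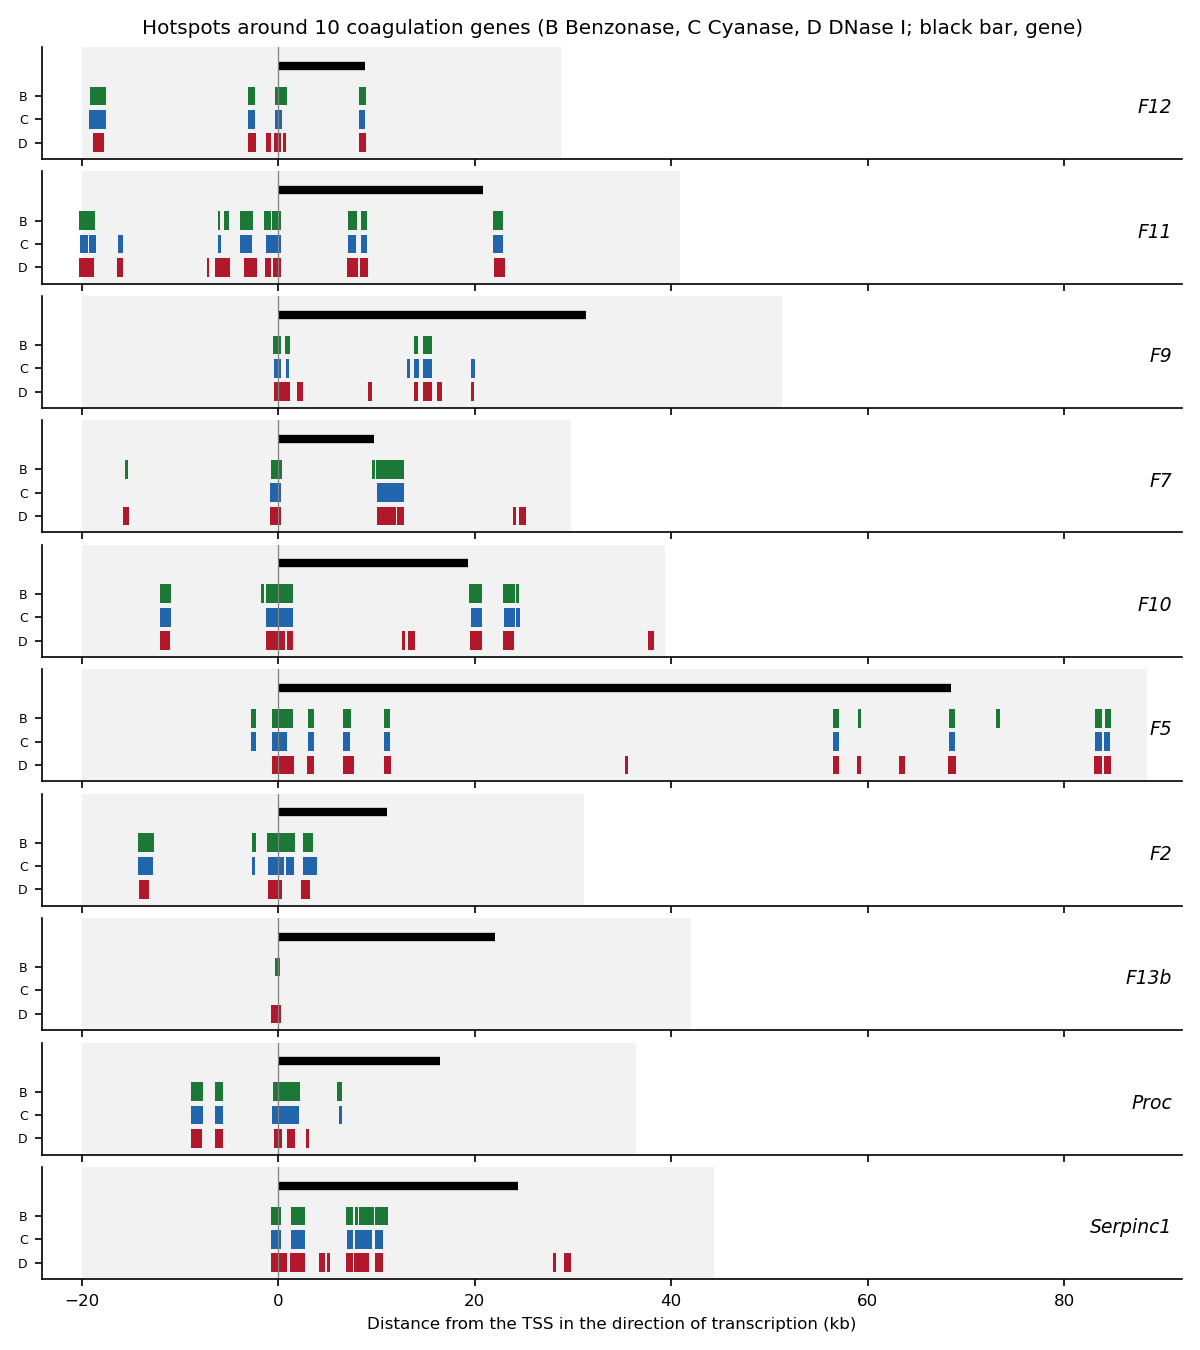
Hotspots of the Benzonase (B), Cyanase (C) and DNase I (D) lists in the window of each gene, plotted as distance from the 5'-most TSS in kb, with the gene as a black bar and the window in grey. Every gene has hotspots at its TSS, F11 has a dense array on both sides of it, and F13b has nothing else.

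F12 encodes the protease that starts the contact pathway. It lies on the minus strand at chr13:55519319-55528154 and has 14 exons. Positions below count from the 5'-most TSS in the direction of transcription, with negative numbers upstream. The Benzonase hotspot over the TSS was 1182 bp wide and ran from -307 to 874, that of Cyanase was 744 bp and ran from -331 to 412, and that of DNase I was 653 bp and ran from -382 to 270. The 3 upstream edges thus lay within 75 bp of each other, whereas the Benzonase hotspot reached 604 bp further into the gene than that of DNase I. A separate DNase I hotspot of 280 bp, from 543 to 822, lay under the far part of the Benzonase hotspot. Just upstream, DNase I alone had a hotspot of 511 bp from -1231 to -721, with a GC content of 46.0%. Hotspots of all 3 lists lay from -3116 to -2289, with widths of 759 bp for Benzonase, 719 bp for Cyanase and 777 bp for DNase I, and over exons 13 and 14, with widths of 735, 632 and 642 bp. The widest region of the window, 1717 bp with 62.5% GC, was the promoter of the neighbouring kinase gene Grk6, where the DNase I hotspot (1085 bp) was much narrower than those of Benzonase (1690 bp) and Cyanase (1717 bp). The starts of the other neighbours, Slc34a1 and Pfn3, lay in no hotspot.

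F11, at chr8:46326524-46347385 on the minus strand with 15 exons, encodes the protease that factor XII activates. At its TSS the hotspots ended close together inside the gene, at 286 for Benzonase, 263 for Cyanase and 283 for DNase I. Upstream they were cut differently: Cyanase had a single hotspot of 1527 bp that began at -1263, whereas Benzonase had hotspots of 912 and 763 bp and DNase I hotspots of 784 and 682 bp over about the same stretch. The region of 1746 bp that they formed was the widest of the window. Further upstream, towards Klkb1, which encodes prekallikrein, another protease of the contact pathway, a region from -3869 to -2144 held hotspots of 1312 bp (Benzonase), 1202 bp (Cyanase) and 1354 bp (DNase I). The DNase I hotspot there was shifted towards the TSS, with its far edge at -3497 and its near edge at -2144, whereas that of Benzonase ran from -3869 to -2558. From -6432 to -4919 a DNase I hotspot of 1514 bp spanned 2 Benzonase hotspots, of 461 and 273 bp, and 1 Cyanase hotspot of 326 bp, so that 690 bp were covered by DNase I alone. DNase I had the only hotspot from -7251 to -6997 (255 bp), and a region from -16371 to -15836, inside the Klkb1 gene, held Cyanase (422 bp) and DNase I (534 bp) but no Benzonase hotspot. Hotspots of all 3 lists in intron 3 and over exon 4 were wider for DNase I, with 1089 bp against 922 bp (Benzonase) and 869 bp (Cyanase) in the intron, and 797 bp against 537 and 545 bp at the exon. The 200 bp before the TSS (chr8:46347386-46347585, minus strand, mm9, 42% GC) are shown in the direction of transcription because they hold letters of known liver factor sites side by side. Capitals mark the FOXA letters and, 1 base further on, the C/EBP letters, both on the reverse strand.
F11 promoter: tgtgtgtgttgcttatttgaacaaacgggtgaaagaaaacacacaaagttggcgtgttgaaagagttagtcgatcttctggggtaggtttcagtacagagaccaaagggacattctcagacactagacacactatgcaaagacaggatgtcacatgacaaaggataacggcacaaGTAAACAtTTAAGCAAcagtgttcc

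F9 encodes factor IX, the protease that is lacking in haemophilia B, and lies at chrX:57252641-57283936 on the plus strand with 8 exons. Its promoter hotspots were 795 bp (Benzonase), 716 bp (Cyanase) and 1622 bp (DNase I) wide. The upstream edges lay at -473, -432 and -415, and the downstream edges at 321, 283 and 1206. The longer DNase I hotspot bridged a gap, since Benzonase had another hotspot from 656 to 1238 and Cyanase from 786 to 1130, and the 334 bp covered by DNase I alone had a GC content of 27.5%. DNase I alone had hotspots in intron 1 (630 bp, 41.8% GC), intron 3 (496 bp, 37.1% GC) and intron 4 (532 bp, 33.8% GC), which was the region of lowest GC content among all 65. Intron 4 also held 2 regions of all 3 lists, from 13780 to 14323 and from 14718 to 15701, and a Cyanase hotspot of 251 bp with no partner. Over exon 6, Cyanase (410 bp) and DNase I (308 bp) overlapped with no Benzonase hotspot. No hotspot of any list lay in the 20 kb on the far side of the gene or upstream of the promoter hotspots. The 200 bp before the TSS (chrX:57252441-57252640, plus strand, mm9, 44.5% GC) lie under the promoter hotspots of all 3 lists and are shown for the C/EBP letters, in capitals. The central 150 bp of the hotspot of DNase I alone in intron 4 (chrX:57268958-57269107, plus strand, mm9, 30.7% GC) are shown because its whole region had the lowest GC content, with G and C in capitals.
F9 promoter: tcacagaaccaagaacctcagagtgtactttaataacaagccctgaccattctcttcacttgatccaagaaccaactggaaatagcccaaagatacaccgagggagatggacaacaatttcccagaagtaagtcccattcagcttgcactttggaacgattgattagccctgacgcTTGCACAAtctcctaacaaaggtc
F9 intron: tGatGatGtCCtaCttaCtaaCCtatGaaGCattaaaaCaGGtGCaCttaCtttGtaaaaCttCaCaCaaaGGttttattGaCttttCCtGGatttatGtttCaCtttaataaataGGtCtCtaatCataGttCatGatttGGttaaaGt

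F7 encodes the protease that binds tissue factor, and F10, the next gene on the same strand, whose TSS lies 11274 bp from that of F7, the protease on which the pathways meet. F7 lies at chr8:13026034-13035809 with 8 exons and F10 at chr8:13037308-13056676 with 9 exons, so their windows overlap and share 5 regions. At the F7 TSS the lists nearly coincided, with 1168 bp for Benzonase (-764 to 403), 1112 bp for Cyanase (-777 to 334) and 1066 bp for DNase I (-781 to 284). Far upstream, within Mcf2l, a region of 562 bp held a DNase I hotspot and a Benzonase hotspot of 309 bp, without Cyanase. The start of Mcf2l in the window lay in no hotspot.

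The promoter of F10 was one of the widest regions, at 2824 bp, and began near the 3′ end of F7. Benzonase (2824 bp) and Cyanase (2785 bp) each covered it with a single hotspot from -1280 to 1543 and from -1242 to 1542. DNase I divided it into hotspots of 1968 and 665 bp, from -1230 to 737 and from 865 to 1529, and left 191 bp uncovered. The 4 annotated starts of F10, the last of them 530 bp inside the gene, all lay under the longer DNase I hotspot. At the end of F7, over its exon 8, Benzonase alone had a hotspot of 344 bp with 55.2% GC. Inside F10 the order was the opposite: DNase I alone had hotspots in intron 6 (360 bp, 38.6% GC) and over exon 7 (729 bp, 48.6% GC, with 236 coding bases). Beyond F10, all 3 lists had hotspots next to the 3′ end (1267, 1044 and 1176 bp) and at the promoter of Proz (1206, 1131 and 1073 bp), which encodes protein Z, a cofactor of an inhibitor of factor X. In the adjoining part of Proz, from 24199 to 24621, Benzonase (281 bp) and Cyanase (423 bp) overlapped without DNase I (57.5% GC), and near its 3′ end DNase I alone had a hotspot of 607 bp (48.4% GC). The central 150 bp of the region without DNase I (chr8:13061644-13061793, plus strand, mm9, 60% GC), which lie outside the exons of Proz, are shown for contrast with the intron of F9, again with G and C in capitals. This stretch was picked from the high end of GC content. The median of the central 150 bp over the 8 regions without DNase I was 51.33%, so the contrast is one of extremes.
Region beside F10: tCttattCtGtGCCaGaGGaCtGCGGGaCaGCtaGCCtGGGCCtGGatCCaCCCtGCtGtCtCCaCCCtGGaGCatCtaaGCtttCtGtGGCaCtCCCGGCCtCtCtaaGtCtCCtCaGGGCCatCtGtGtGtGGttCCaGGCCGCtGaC

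F5 encodes the cofactor of factor X and is the longest of the genes, with 68.4 kb and 25 exons at chr1:166081969-166150408 on the plus strand. Its TSS lay in a DNase I hotspot of 2313 bp (-669 to 1643), the widest DNase I hotspot of all the windows, in a Benzonase hotspot of 1538 bp (-650 to 887) and in a Cyanase hotspot of 1462 bp (-581 to 880). Another Benzonase hotspot from 948 to 1546 lay under the rest of the DNase I hotspot, where Cyanase had none. Of the 13 regions in the window, 8 held all 3 lists, among them introns 2 and 3, exon 20, the last exon and 2 regions downstream of the gene. In each of the 7 of these with 1 hotspot per list, the DNase I hotspot was wider than that of Benzonase, by 3 to 312 bp. DNase I alone had hotspots in intron 11 (321 bp, 42.1% GC) and intron 23 (594 bp, 36.4% GC), and DNase I (424 bp) shared a region in intron 21 with Benzonase (305 bp). Upstream of the promoter, from -2793 to -2259, Benzonase (459 bp) and Cyanase (522 bp) had hotspots without DNase I at the 3′ end of Selp, which encodes P-selectin, and the GC content was 51.2%. Benzonase alone had a hotspot of 403 bp downstream of the gene (49.6% GC). The 197 bp that end before the RefSeq start (chr1:166081769-166081965, plus strand, mm9, 56.35% GC) are shown as the promoter with the SP1 letters, in capitals. The central 150 bp of the intron 23 hotspot (chr1:166145364-166145513, plus strand, mm9, 37.3% GC) are shown, with G and C in capitals. Over its whole length this hotspot was next lowest in GC content among the regions of DNase I alone, after that shown for F9. In the central 150 bp another region of F9 was lower (36.67%) and a region of F11 had the same value. The stretches shown from F9 and F5 lie at the low end, as the median of the central 150 bp of such regions was 44% and 6 of the 15 had at least 50% GC there.
F5 promoter: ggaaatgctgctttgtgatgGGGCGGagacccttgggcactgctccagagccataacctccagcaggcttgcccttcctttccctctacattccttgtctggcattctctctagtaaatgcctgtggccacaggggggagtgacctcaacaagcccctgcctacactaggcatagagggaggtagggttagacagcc
F5 intron: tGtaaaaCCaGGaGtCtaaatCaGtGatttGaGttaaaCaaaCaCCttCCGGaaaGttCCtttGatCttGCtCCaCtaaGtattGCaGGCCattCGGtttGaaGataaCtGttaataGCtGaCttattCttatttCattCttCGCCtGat

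F2, at chr2:91465477-91476571 on the minus strand with 14 exons, encodes prothrombin. Its promoter region was the widest of all, at 2935 bp, and was covered from end to end by a Benzonase hotspot from -1181 to 1753. Cyanase had hotspots from -1046 to 621 (1668 bp) and from 776 to 1622 (847 bp), and DNase I a single hotspot of 1431 bp from -1063 to 367. The upstream edges of Benzonase and DNase I lay 118 bp apart and the downstream edges 1386 bp apart. The 1504 bp without DNase I, most of which lay inside the gene and reached as far as exon 4, had a GC content of 55.5%, and the rest of the region 51.1%. F2 was the only gene with a TSS in all 3 lists whose window held no region of DNase I alone, and it had 2 regions without DNase I, from -2636 to -2275 with Benzonase (339 bp) and Cyanase (322 bp), and in intron 6 with Cyanase alone (259 bp). Over exons 5 and 6 the hotspots were 1028 bp (Benzonase), 1085 bp (Cyanase) and 916 bp (DNase I) wide. The shared promoter of Zfp408 and Arhgap1, from -14261 to -12684, had hotspots of 1529 and 1517 bp for Benzonase and Cyanase and of 987 bp for DNase I, with 56.3% GC.

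F13b, at chr1:141398284-141420333 on the plus strand with 12 exons, was unlike the other genes. Its window of 62.0 kb held a single region of 989 bp, at the TSS, made of a DNase I hotspot from -676 to 312 and a Benzonase hotspot of 518 bp from -359 to 158. The Cyanase list had no hotspot in the window, as was the case for 4319 of the 22365 protein-coding genes. The region had 35.3% GC, and the promoter (250 bp before to 50 bp after the TSS) had 32.7% GC, the lowest of the 10 promoters.

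Proc encodes protein C, the precursor of a protease that inactivates factor V. It lies on the minus strand of chromosome 18, has 9 exons, and has a start at its 5′ end and another 1365 bp inside. Benzonase and Cyanase covered both starts with 1 hotspot each, of 2750 bp (-518 to 2231) and 2671 bp (-580 to 2090). DNase I had a hotspot for each start, of 847 bp (-468 to 378) and 828 bp (917 to 1744), so that 1137 bp of the region of 2812 bp lay outside DNase I hotspots, with 51.2% GC against 53.0% in the parts that DNase I covered. Upstream of Proc the lists nearly coincided, with 842 bp (Benzonase), 840 bp (Cyanase) and 830 bp (DNase I) from -6412 to -5563, and 1248, 1229 and 1156 bp from -8896 to -7636. DNase I alone had a hotspot in intron 1 (316 bp, 43.7% GC). Over exons 5 and 6, Benzonase (487 bp) and Cyanase (271 bp) overlapped without DNase I in the region of highest GC content among those that lacked DNase I (62.0%), with 273 coding bases.

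Serpinc1 encodes antithrombin, the serpin that traps thrombin and factor X, and lies at chr1:162908737-162933141 on the plus strand with 8 exons. Over its TSS the Benzonase (980 bp, -693 to 286) and Cyanase (982 bp, -690 to 291) hotspots differed by at most 5 bp at either edge. The DNase I hotspot of 1599 bp began at -718, 25 bp from that of Benzonase, and ended at 880, 594 bp further into intron 1. The 614 bp covered by DNase I alone had 45.1% GC and the rest of the region 44.2%. Intron 1 also held 2 regions of all 3 lists and 2 DNase I hotspots with no partner (607 bp with 47.6% GC and 310 bp with 49.0% GC). The widest region of the window, 2014 bp, lay over exon 2, where a DNase I hotspot of 1471 bp overlapped a pair of hotspots of each other list (312 and 1553 bp for Benzonase, 435 and 1372 bp for Cyanase) and left 543 bp of the region uncovered. Over exon 3, Benzonase had 1270 bp, and Cyanase (728 bp) and DNase I (736 bp) stopped 518 and 523 bp short of its far edge. DNase I alone also had 2 hotspots downstream of the gene, of 381 and 736 bp, and no region in the window lacked DNase I.

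**Figure D2:**
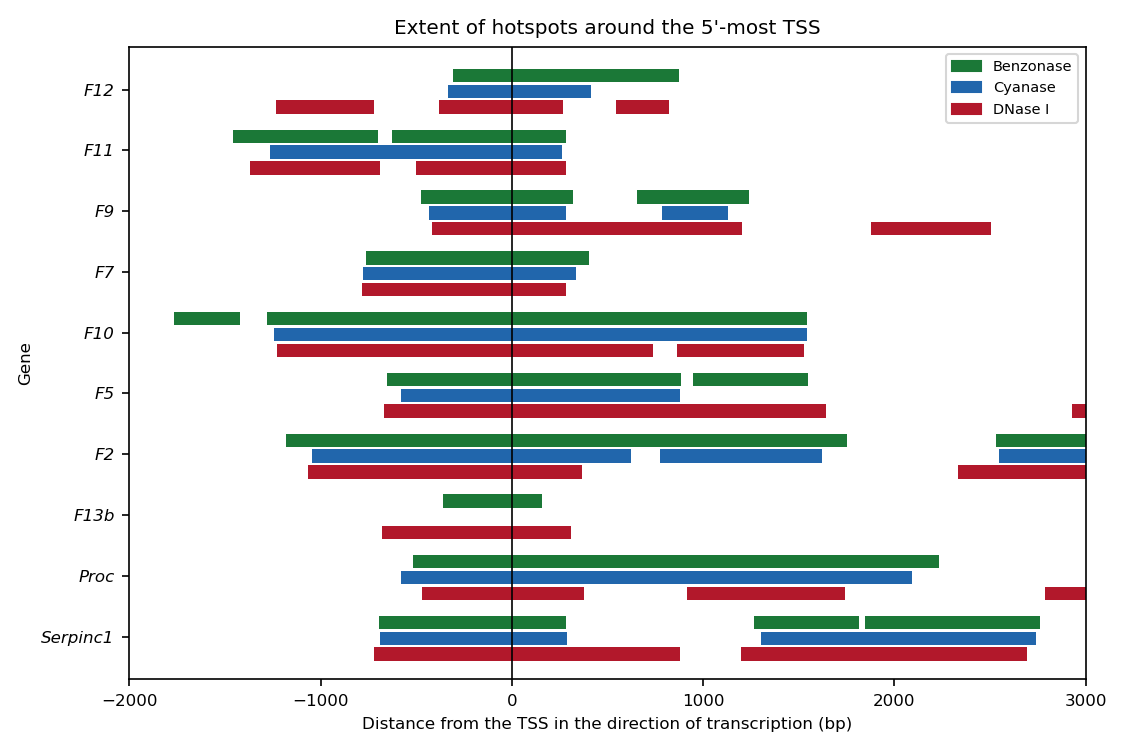
Extent of the hotspots of the Benzonase (B), Cyanase (C) and DNase I (D) lists around the 5'-most TSS of each gene, in bp from the TSS. The upstream edges of the 3 lists lie close together at most genes, while the downstream edges of Benzonase and DNase I lie up to 1853 bp apart.

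Across the 10 genes, hotspots over the 5'-most TSS had a median width of 1175 bp for Benzonase (range 518 to 2935), 1462 bp for Cyanase (9 genes, 716 to 2785) and 1248.5 bp for DNase I (653 to 2313). The medians cover different genes, since F13b had no Cyanase hotspot, and gene by gene the Cyanase hotspot was narrower than that of Benzonase at 7 of 9 genes, all but F11 and Serpinc1, a share close to that of all protein-coding genes (9125 of 11538). Over all protein-coding genes with such a hotspot the medians were 1254, 1161 and 855 bp. The DNase I hotspot was narrower than that of Benzonase at 6 of the 10 genes, namely F12, F11, F7, F10, F2 and Proc, against 88.0% of the 9652 protein-coding genes with both. It was wider at F9, F5, F13b and Serpinc1. These 4 genes had the 4 lowest GC contents of the TSS region, 40.8% in F9, 45.6% in F5, 35.3% in F13b and 44.5% in Serpinc1, and the other 6 ranged from 47.3% in F11 to 55.2% in F10. Over all protein-coding genes, DNase I was narrower in 6.38% of 47 TSS regions under 40% GC, 31.8% of 148 between 40 and 45%, 55.4% of 637 between 45 and 50%, 79.9% of 2365 between 50 and 55% and 93.8% of 3653 between 55 and 60%. The TSS region is the extent of the joined hotspots, so its GC content is not independent of their widths. The GC content of the fixed promoter of 300 bp gave another order, since F5 had the highest value (57.7%) and F11 (42.3%) lay beside Serpinc1 (42.0%).

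The edges of Benzonase and DNase I hotspots at the TSS differed by a median of 54.0 bp on the upstream side (at most 317 bp, in F13b) and of 680 bp on the downstream side (at most 1853 bp, in Proc). The downstream edges lay further apart than the upstream edges at 8 of the 10 genes, all but F11 and F13b, against 74.4% of protein-coding genes, where the medians were 89.0 and 271 bp. Between Cyanase and Benzonase the medians were 41.0 bp upstream and 38.0 bp downstream over 9 genes, and the large differences were those of F2 (1132 bp) and F12 (462 bp) downstream and F11 (638 bp) upstream. The distances depend on how a list divides a stretch into hotspots. With hotspots of a list within 150 bp of each other joined, the DNase I and Benzonase medians were 66.5 bp upstream (at most 959 bp, in F11) and 374 bp downstream, the downstream difference of F10 fell to 14 bp and that of F5 to 97 bp, and the downstream edges lay further apart at 7 genes.

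In the 26 regions of the windows with exactly 1 hotspot of each list, the bounds of Cyanase and Benzonase hotspots differed by a median of 22.5 bp at the start and 27.5 bp at the end, and those of DNase I and Benzonase by 63.5 and 62.5 bp. Over all 33922 such regions of the genome the medians were 33 and 33 bp for Cyanase and Benzonase and 72 and 71 bp for DNase I and Benzonase. The medians of the windows depended on the pairs taken. With each overlapping pair of hotspots they were 39 and 37.5 bp for Cyanase and Benzonase and 89 and 100 bp for DNase I and Benzonase. The DNase I hotspot was narrower than the Benzonase hotspot in 12 of the 26, where 55.8% of such regions in gene windows had a narrower DNase I hotspot. Median hotspot widths in the windows were 761 bp for Benzonase (95% interval of the median 608 to 960), 719 bp for Cyanase (632 to 922) and 736 bp for DNase I (655 to 847). These intervals describe the hotspots of 1 list each, and no difference between nucleases was tested with them.

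The ratio of the DNase I to the Benzonase width fell with the GC content of the region. That GC content was taken over the joined hotspots, so the widths in the ratio also set the stretch that was measured. The ratio and the GC content are therefore not independent, and GC content of a fixed stretch was not set against the ratio. In the windows its median was 1.18 in 5 regions under 40% GC, 1.13 in 8 between 40 and 45%, 1.02 in 5 between 45 and 50% and 0.891 in 5 between 50 and 55%. The 3 regions above that had ratios of 0.874 (exons 13 and 14 of F12), 0.646 (the promoter of Zfp408 and Arhgap1) and 0.642 (the promoter of Grk6). The ratio was under 1 in 12 regions, among them all 8 of at least 50% GC. Spearman's rho across the 26 regions was -0.691, and -0.682 across the 27892 such regions in the windows of all protein-coding genes. Regions are not independent, since they share the 3 lists, and the values are a description. The medians for all genes in the same classes of GC content were 1.26, 1.14, 1.03 and 0.916, so that the coagulation regions lay close to the other gene windows. The Cyanase to Benzonase width ratio had medians of 0.960, 1.01, 0.916 and 0.952 in the same 4 classes.

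**Figure D3:**
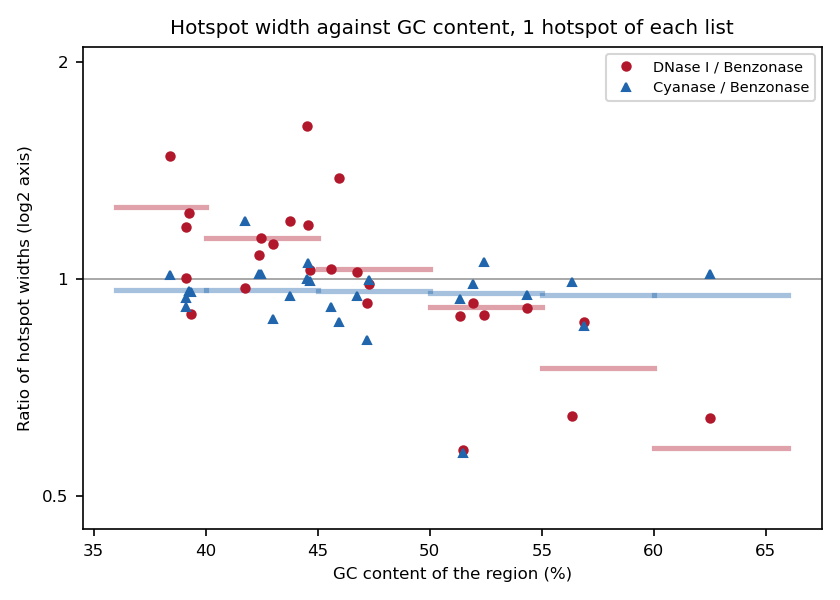
Ratio of DNase I to Benzonase (red circles) and of Cyanase to Benzonase hotspot width (blue triangles) on a log2 axis against GC content, for the 26 regions of the coagulation gene windows with 1 hotspot of each list. Pale bars are medians by class of GC content over such regions in the windows of all protein-coding genes, and the red points fall from left to right while the blue points do not.

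Regions with hotspots of all 3 lists made up 37 of the 65 (56.9%, interval 44.8 to 68.2), against 44.3% of the 70645 regions in the windows of all protein-coding genes. DNase I alone marked 15 regions (23.1%, interval 14.5 to 34.6, background 26.2%). Regions without DNase I numbered 8 (12.3%, interval 6.37 to 22.5, background 24.1%), of which 4 held Benzonase and Cyanase, 2 Benzonase alone (F5 and the end of F7) and 2 Cyanase alone (F2 and F9). Another 5 held DNase I and 1 other list (7.69%, interval 3.33 to 16.8, background 5.42%). The shares depended on the rule. When hotspots had to overlap by 50% of both, the share of all 3 lists was 43.04% and that without DNase I 21.52%. When each list was cut at its lower quartile of width, these shares were 74.47% and 6.383%, and that of DNase I and 1 other list was 2.128%. At least 1 region of DNase I alone was found in 8 of the 10 windows, all but F2 and F13b (background 50.7%), and at least 1 without DNase I in 6, those of F2, F5, F7, F9, F10 and Proc (background 55.4%). Counted per list, 88.5% of the Benzonase hotspots (46 of 52) and 85.7% of the Cyanase hotspots (42 of 49) overlapped a DNase I hotspot, and a Benzonase hotspot met 45 of the 62 DNase I hotspots (72.6%). The shares in the whole lists were 69.3%, 71.1% and 60.35% in the same order.

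Regions of all 3 lists had the largest median width of the classes, 1261 bp, against 949 bp for that class over the windows of all protein-coding genes. A region is as wide as the hotspots joined in it, and this class joins at least 3. The order of the classes by width therefore follows in part from the joining, and no result is read from it. The regions of DNase I alone were 255 to 736 bp wide, with 9 of 15 in introns, 3 downstream, 2 upstream and 1 over an exon. Those without DNase I were 251 to 535 bp wide, with 2 each in exons, introns, upstream and downstream of the genes. Of the 37 regions of all 3 lists, 16 lay over exons, but 9 of these 16 were the regions of the TSS, which hold exon 1. Places were not compared with those of other genes, so no difference in place is read from these counts.

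**Figure D4:**
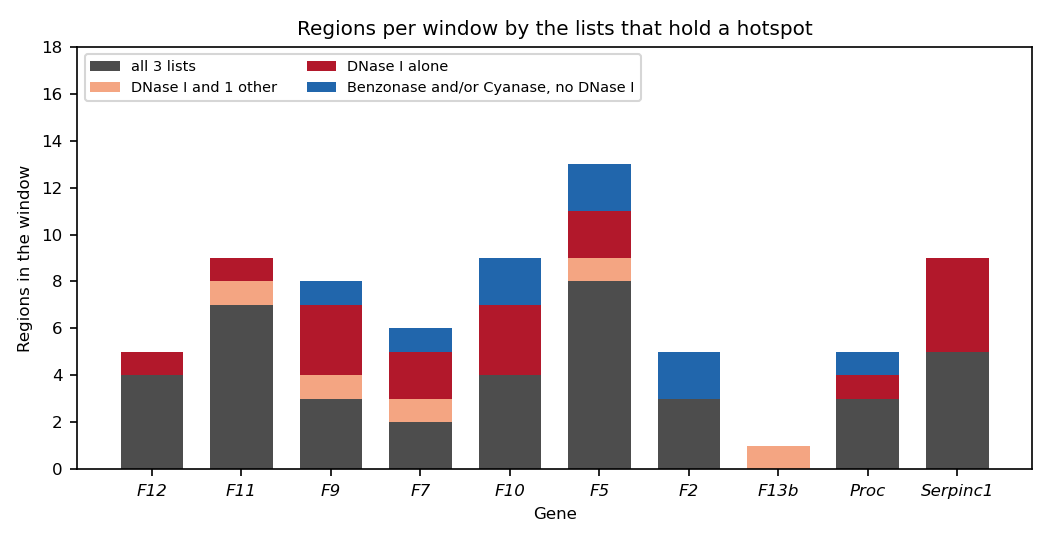
Number of regions in the window of each gene, coloured by the lists that hold a hotspot in the region, with regions of the overlapping F7 and F10 windows drawn for both genes. F5 has the most regions (13), F13b has 1, and F2 is the gene with regions that lack DNase I and none of DNase I alone.

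Mean GC content differed between the classes, whose ranges overlapped. The mean was 43.1% (SD 5.01 across regions, range 33.8 to 49.0) in the 15 regions of DNase I alone, 47.1% (SD 5.91, 38.4 to 62.5) in the 37 regions of all 3 lists and 52.5% (SD 5.44, 45.02 to 62.0) in the 8 regions without DNase I. Of those 8 regions, 6 lay above the highest value of DNase I alone (3 when the central 150 bp of each region were taken, where DNase I alone reached 59.33%), and the Cyanase hotspot in intron 4 of F9 had the lowest value. In the central 150 bp the means of the 3 classes were 45.33% (SD 8.75), 47.5% (SD 8.60) and 52.8% (SD 8.01). In the windows of all protein-coding genes the means over whole regions were 42.8%, 50.8% and 55.7%, and in the central 150 bp 43.2%, 54.6% and 58.0%. The gap between DNase I alone and all 3 lists was thus smaller in the centre than over whole regions in the coagulation windows, and larger in the windows of all genes. Taken by bases, the 12.5 kb of the windows covered by DNase I alone had 42.3% GC, the 11.1 kb covered by Benzonase or Cyanase without DNase I had 52.4%, the 39.3 kb shared by DNase I with another list had 48.3%, and the 531.1 kb outside hotspots had 43.3%. Over the windows of all protein-coding genes these values were 42.61%, 56.2%, 51.97% and 42.72% in the same order.

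**Figure D5:**
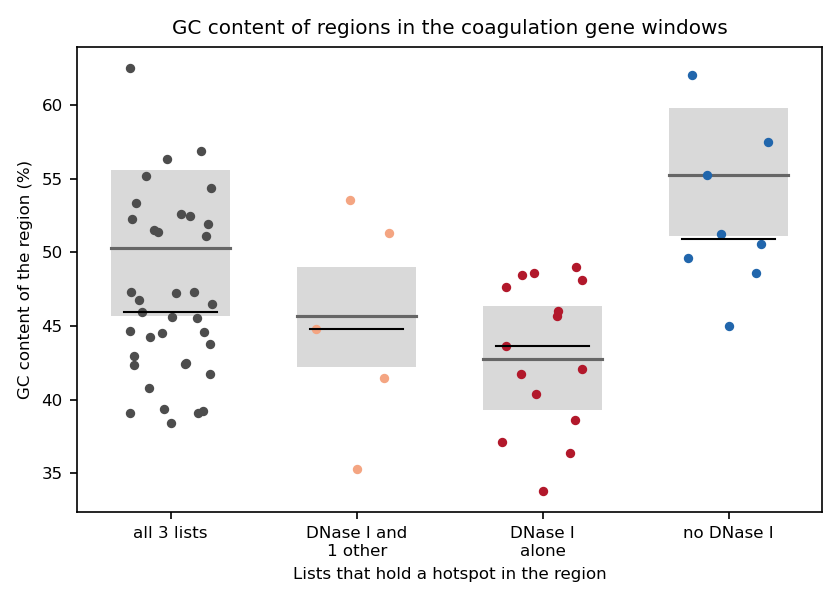
GC content of each region in the coagulation gene windows (points, with black lines at their medians) by the lists that hold a hotspot. Grey boxes are the quartiles and medians of the regions in the windows of all protein-coding genes, and every region of DNase I alone lies under 50% GC over its whole length.

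The promoters themselves, taken as 250 bp before to 50 bp after the 5'-most TSS, had few CpG dinucleotides. They held 3 (F13b) to 10 (Proc) CpGs, with a median of 5 against 12 over all 22365 promoters, and the ratio of observed to expected CpG ranged from 0.161 (F5) to 0.447 (F11) with a median of 0.3202, against 0.542 over all promoters. Their median GC content was 53.0%, against 55.3%. Among the neighbours with a TSS inside hotspots of all 3 lists, the ratio was 0.986 for Grk6, 0.831 for Zfp408 and 0.650 for Arhgap1, and 0.357 for Proz, which like the coagulation factors is secreted by the liver.

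Letters known from sites of liver-enriched factors, and those of SP1 and NF1, were searched on both strands of these promoters. The letters TTGCNNAA (C/EBP) occurred in 3 of the 10 promoters, those of F9, F11 and Serpinc1, against 10.3% of all promoters of the same length. FOXA letters, searched in 3 forms of 7 bases, occurred in F11 alone (10.2%), as TGTTTAC upstream of the TSS and in another form inside the gene from 44 to 50. The SP1 letters GGGCGG occurred in F5 alone (43.95%). CAAAGTCCA (HNF4) and the full NF1 motif occurred in 0 of the 10, and in 0.452% and 0.0268% of all promoters. These counts depended on the stretch searched. In the longer hotspots over the TSS of Benzonase, Cyanase and DNase I, the C/EBP letters occurred in 7, 6 and 5 genes. The FOXA letters occurred there in 4, 3 and 4 genes and the SP1 letters in 3, 3 and 3, with no background computed. A match describes letters and is no evidence that a factor binds. The C/EBP matches in F9 (-24 to -17), F11 (-17 to -10) and Serpinc1 (-19 to -12) and the upstream FOXA match in F11 (-25 to -19) lay just before the GENCODE start, and that of Serpinc1 lay inside the transcript by its RefSeq start at -23.

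Another 27 genes of the pathway were scored in the same way by a TSS inside a hotspot. Of these, 23 had one in the Benzonase list (57.4% of all protein-coding genes), 24 in the Cyanase list (55.7%) and 19 in the DNase I list (47.4%), and 19 had one in all 3 (46.1%). Genes with a TSS in every list were Klkb1 and Kng1 of the contact system and Fga, Fgb and Fgg for the fibrinogen chains. Others were Ggcx and Vkorc1 of the vitamin K cycle, and Lman1 and Mcfd2, which serve the secretion of factors V and VIII. The rest were F8, Thbd, Pros1, Proz, Serpina10, Serpind1, Plg, Serpinf2, Cpb2 and Hrg. The fibrinogen genes, which share overlapping windows, had 9 to 15 Benzonase, 9 to 14 Cyanase and 12 to 16 DNase I hotspots per window. No list had a hotspot over a TSS of Vwf (von Willebrand factor), Serpina5 (protein C inhibitor) or Tfpi (tissue factor pathway inhibitor), although their windows held 9, 8 and 2 Benzonase hotspots. Benzonase and Cyanase hotspots without DNase I covered a TSS of F3 (tissue factor), Procr (the protein C receptor), and Plat and Plau (plasminogen activators). F13a1, the catalytic subunit that the product of F13b carries, had a hotspot over a TSS in the Cyanase list alone, the reverse of F13b, where Cyanase was the list that had none. The promoters of F3, Procr, Plat and Plau had GC contents of 70.3%, 52.7%, 55% and 57.3%, and that of F13a1 had 42.7%. Promoters of the pathway genes with a TSS in every list ranged from 36.7% (Hrg) to 72.3% (Mcfd2). No pattern of GC content is read from these values.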

How the data were processed

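Liver of mice was digested with Benzonase, Cyanase (frozen tissue) or DNase I (nuclei of fresh tissue). Alignment by the authors was to mm9 (Eland or Bowtie, versions not given in the sources used here), and their hotspots come from tags pooled by nuclease, with a false discovery rate given as 0%. The paper also gives a tag density threshold at the mode. For each nuclease it reports fewer hotspots than the deposited list holds, so the lists used here are not the paper's hotspot sets. The reason for the difference is unknown. The deposited files hold 3 columns, chromosome, start and end (in bp, counted from 0, here from 1), with no count, score or density, and 0 columns of other samples. Thus depth per hotspot and precision per library are unknown.

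Genes came from GENCODE release M1, whose build, NCBIM37, is mm9. Chromosome lengths were checked, and 2 hotspots elsewhere in the genome ended past a chromosome end. Regions were hotspots joined by an overlap of 1 bp, and genes with several protein-coding transcripts had every TSS scored. Of a region in both the F7 and F10 windows, the place is given as exon or intron before upstream or downstream. Shares have 95% Wilson intervals and medians 95% order-statistic intervals. No test was planned, because each nuclease has 1 pooled list. Python 3.11.15, numpy 2.4.6, pandas 2.3.3, scipy 1.17.1, pysam 0.24.0 and matplotlib 3.10.9 were used. Merging and intervals were tested on simulated lists.

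The genes, gene lists and windows were chosen with earlier results of these data known. The text names, for each gene, the hotspots at the TSS, the widest region and the regions that lack a list, and other genes whose TSS lies in a window. Some shared regions and the genes at the extremes were chosen after their values were seen, as was the comparison of edges at the TSS. Alternatives were windows of 0, 5 or 50 kb, all annotated transcripts, hotspot midpoints, hotspots without the lower width quartile, removal of hotspots at other genes, an overlap of 50% of both hotspots, joining within 150 bp, each gene left out, only the 5'-most TSS, hotspots within 1 kb of a TSS, overlapping pairs in place of single hotspots, the central 150 bp for GC content and the promoter hotspot in place of the fixed promoter. RefSeq starts, and joining at the TSS, were added after the data were seen. Of the planned lists, 1 marker gene, 1 pathway gene and 1 motif are not reported here.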

Additional observations from a re-analysis of the deposited data

How the results depend on the processing

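Of 159 alternatives, 144 stayed within the error of a result and 15 moved it. Counts had to stay within a ratio of 1.5, shares within their 95% Wilson interval and medians within their 95% interval, which are wide at these numbers. With the gene bodies alone the windows held 32 Benzonase, 31 Cyanase and 40 DNase I hotspots. The share of regions with all 3 lists fell to 43.04% of 79 regions when hotspots had to overlap by 50% of both. Without hotspots under the lower width quartile it rose to 74.47% of 47 regions, and the share with DNase I and 1 other list fell to 2.128%. Under the same pair of settings the share without DNase I was 21.52% and 6.383%, inside its interval but on either side of 12.3%. With each overlapping pair in place of single hotspots, the median start difference of Cyanase and Benzonase was 39 bp in place of 22.5 bp, and the end difference of DNase I and Benzonase 100 bp in place of 62.5 bp. With hotspots joined within 150 bp, the median downstream edge difference of DNase I and Benzonase at the TSS was 374 bp in place of 680 bp. Motif counts depended on the stretch searched. In the hotspot over the TSS in place of the fixed promoter, the FOXA letters occurred in 4 genes for Benzonase, 3 for Cyanase and 4 for DNase I, the C/EBP letters in 7, 6 and 5, and the SP1 letters in 3, 3 and 3. All of these hotspots are longer than the promoter, and the share over the TSS hotspots of all genes was not computed, so these counts have no background and cannot be read as frequent or rare. Leaving out each gene in turn moved no share of the region classes, and was not run for the other shares. No paired analysis was possible and no library could be left out, because each list pools its samples, so precision between animals is unknown. The lists give no tag numbers, so how far an absent hotspot lay under the threshold, and the part of depth, were not tested. Nuclease, tissue state and preparation cannot be told apart, and a small number of genes, partly in shared windows, was compared.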
